A study of Homo sapiens with 12 samples.

Results

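LNA-miR-197, a locked nucleic acid inhibitor of the microRNA miR-197, was compared with its control oligonucleotide LNA-NC on 6 of the 12 expression arrays of the series. The members were the arrays whose titles end in LNA-miR-197 (3 arrays) or LNA-miR-NC (3 arrays), 1 of each for A549, PC14 and PC14CDDP, and each treated array was paired with the control array of its line. A549 and PC14 are established human lung cancer lines, and PC14CDDP is a cisplatin-resistant line derived from PC14, so that PC14 and PC14CDDP share an origin. Each line was transfected once per oligonucleotide at 25 nM with the lipid reagent DharmaFECT 1, and no transfection was repeated within a line, which makes the cell line the replicate (n = 3). The remaining 6 arrays held the same lines transfected with pre-miR-197, a synthetic precursor of the miRNA, or with its control NC. The labels give NC as AllStar-NC and not as an LNA. A comparison of LNA-miR-197 with NC is thus also one between different kinds of oligonucleotide. The NC arrays served as a second control for the inhibitor, to separate genes that differed on the LNA-miR-197 arrays from genes that differed on the LNA-NC arrays.

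MicroRNAs are short RNAs that guide Argonaute proteins to messenger RNAs by pairing of the seed, bases 2 to 8, and lower the amount or the translation of these messages. An inhibitor built with locked nucleic acids binds the mature miRNA tightly and keeps it from its targets, so that direct targets are expected among the transcripts that rise. MIR197 lies on chromosome 1, at chr1:109598940-109598961 (GRCh38.p14, plus strand) for the 3p arm and chr1:109598901-109598923 for the 5p arm. The mature sequences from RefSeq are shown for both arms, since the labels give the inhibitor as LNA-miR-197 without an arm, with the seed in capitals.
hsa-miR-197-3p: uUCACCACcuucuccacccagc
hsa-miR-197-5p: cGGGUAGAgagggcagugggagg
In DNA letters the match to the 3p seed reads GTGGTGA. No probe of the array was named for MIR197 (0 of 50599), so the arrays carried no check of the miRNA itself, and the transcripts below are the only readout of the inhibitor in these data.

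Levels are given as log2 of the background-subtracted signal minus the 75th percentile of the array, so that a level of 0 is the 75th percentile and a difference of 1 is a 2-fold change. They compare a transcript between arrays and not with other transcripts. Between 55.8% and 63.0% of the probes were well above background on each of the 12 arrays, no spot was saturated, and the repeat spots of 902 probes had a median SD of 0.071 to 0.080 on the log2 scale. Of the epithelial markers, KRT7, KRT8, KRT18, KRT19, NAPSA and SFTPC were well above background on all 6 arrays. NKX2-1 was so on 4 of the 6, EPCAM and CDH1 each on 3 of the 6, and SFTPB on none. Of the fibroblast markers only COL1A1 was above background on all 6, and 4 of the 6 were on none. Of 5 leukocyte markers 4 were above background on all 6 arrays, among them PTPRC at a mean of -3.57 after LNA-miR-197 and -4.00 after LNA-NC and CD68 at 0.75 and 0.96, and none of the 5 was called. So were 2 of 3 endothelial markers (VWF and CDH5) and 2 of 3 neuron markers (RBFOX3 and SNAP25). A signal above background thus did not by itself mark a cell type here. All A549 arrays were on 1 slide and all PC14 and PC14CDDP arrays on another, and every transfection had the same position in each line, so that position and transfection cannot be told apart. Genes that were well above background on neither array of a line (6.32% of genes in A549, 5.85% in PC14 and 10.0% in PC14CDDP) had median log2 ratios of 0.04, -0.28 and 0.38, values that carry no order.

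Against LNA-NC, 933 of 24856 genes tested were higher after LNA-miR-197 (3.75%) and 970 were lower (3.9%) at an adjusted p under 0.05, by limma on all 12 arrays with Benjamini-Hochberg adjustment. All 933 and 970 moved the same way in the 3 lines, with median log2 ratios of 0.68 and -0.77, against -0.02 over all genes. A mean change of at least 2-fold was seen for 173 of the genes called higher and 292 of those called lower. In the same fit 3272 of the 24856 genes were higher and 3494 lower at an unadjusted p under 0.05. The unadjusted counts of the gene lists below are to be read beside these. The SD of the log2 ratios over all genes was 0.60 for A549, 0.51 for PC14 and 0.76 for the resistant line PC14CDDP. With 1 array per transfection and line, this SD also holds array noise and the scatter of dim genes. A difference in response between the lines was not tested. The ratios correlated across genes with r = 0.26 between A549 and PC14, 0.30 between A549 and PC14CDDP and 0.47 between PC14 and PC14CDDP. These correlations are across genes of arrays that share a platform, and genes are not independent replicates. The calls rested on the spread shared by all 12 arrays. With only the 6 arrays of the comparison in the fit, limma called 0 genes higher and 0 lower, although 2186 and 2581 had an unadjusted p under 0.05, and leaving out A549, PC14 or PC14CDDP left 0 called higher and 0, 2 and 0 called lower. Counted without a test, 1699 genes (6.84%) were higher and 2022 (8.13%) lower by at least 1.2-fold in every line. An exact sign-flip test of 3 paired differences cannot give a two-sided p below 0.25, so none is given for single genes. The methods' t-test of each gene was run here without the pairing, so that differences between the lines entered its spread. It gave 358 higher and 400 lower at an unadjusted p under 0.05, and 0 after adjustment.

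The comparison with NC divided these genes. Against NC, LNA-miR-197 gave 1739 genes called higher (7%) and 1942 called lower (7.81%). Of the 933 genes called higher against LNA-NC, 740 (79.3%) were also called higher against NC, which is 2.98% of all genes tested, and of the 970 called lower, 616 (63.5%) were also called lower, or 2.48%. Both comparisons use the same LNA-miR-197 arrays, so that the overlap is no independent evidence. A further 59 of the genes called higher and 158 of those called lower changed by less than 1.2-fold against NC, or in the opposite direction. LNA-NC itself differed from NC in 128 genes called higher and 50 called lower.

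Among the genes called against both controls, the largest rises were spread over unrelated functions. SNORD84, a box C/D small nucleolar RNA, had levels after LNA-miR-197 of -1.27, -0.32 and 1.25 (A549 first, then PC14, then PC14CDDP, as for all values by line that follow), of -4.10, -2.58 and -2.92 after LNA-NC, and of -4.20, -2.66 and -3.11 after NC. All 3 treated arrays lay above all 6 control arrays, and the mean log2 ratio to LNA-NC was 3.09 ± 0.98 (SD, n = 3), or 8.50-fold (adjusted p = 0.0146). KRT34, a hair keratin, was at -1.60, -4.37 and -0.48 after LNA-miR-197 and at -4.35, -7.36 and -3.63 after LNA-NC. The treated and control levels of KRT34 overlapped between lines, because PC14 expressed less of it, but it was higher than LNA-NC in each line (mean log2 ratio 2.97, adjusted p = 0.0103). Of the LNA-NC arrays 2 gave a KRT34 signal well above background, and with normexp, a model-based background correction, the log2 ratio was 1.45. ZFP37, a zinc finger gene, rose in each line to -1.47, -0.35 and 1.35 from -3.33, -1.92 and -1.04 (log2 ratio 1.94 ± 0.42, SD, n = 3, adjusted p = 0.00785). RASSF1, a tumor suppressor that binds Ras-related proteins and microtubules, was at 3.15, 4.53 and 4.28 after LNA-miR-197 against 2.04, 2.36 and 2.54 after LNA-NC, without overlap (log2 ratio 1.68 ± 0.53, SD, n = 3, adjusted p = 0.0337). After pre-miR-197 its ratios to NC were 0.18, 1.61 and 2.26, with a mean of 1.35 that was not called (adjusted p = 0.137), and the difference between the inhibitor and the precursor was 0.33 (adjusted p = 0.770).

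SPANXA1, of a family of cancer-testis antigens on the X chromosome, rose by a log2 ratio of 2.83 on average, from 1.77 in A549 to 4.44 in PC14CDDP, and SPANXB2 of the same family by 2.64, with a second probe at 2.54. The members of this family are nearly identical in sequence, so their signals cannot be assigned to single genes. SPANXN5 was called against LNA-NC (2.90) but not against NC (1.94, adjusted p = 0.0697) and was well above background on 5 of 12 arrays. HSF2BP, which takes part in meiotic recombination, was called higher (2.65) but its LNA-NC signal was well above background in 1 line only, and its log2 ratio was 0.63 with normexp. WHRN, which encodes the scaffold protein whirlin, rose by 1.84 on the brightest of its probes, while its other probe had a log2 ratio of -0.48, so its direction rests on 1 probe. AKAP19 rose by 1.67 ± 0.98 (SD, n = 3), with 2.72 in A549 and 0.77 in PC14.

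**Figure D1:**
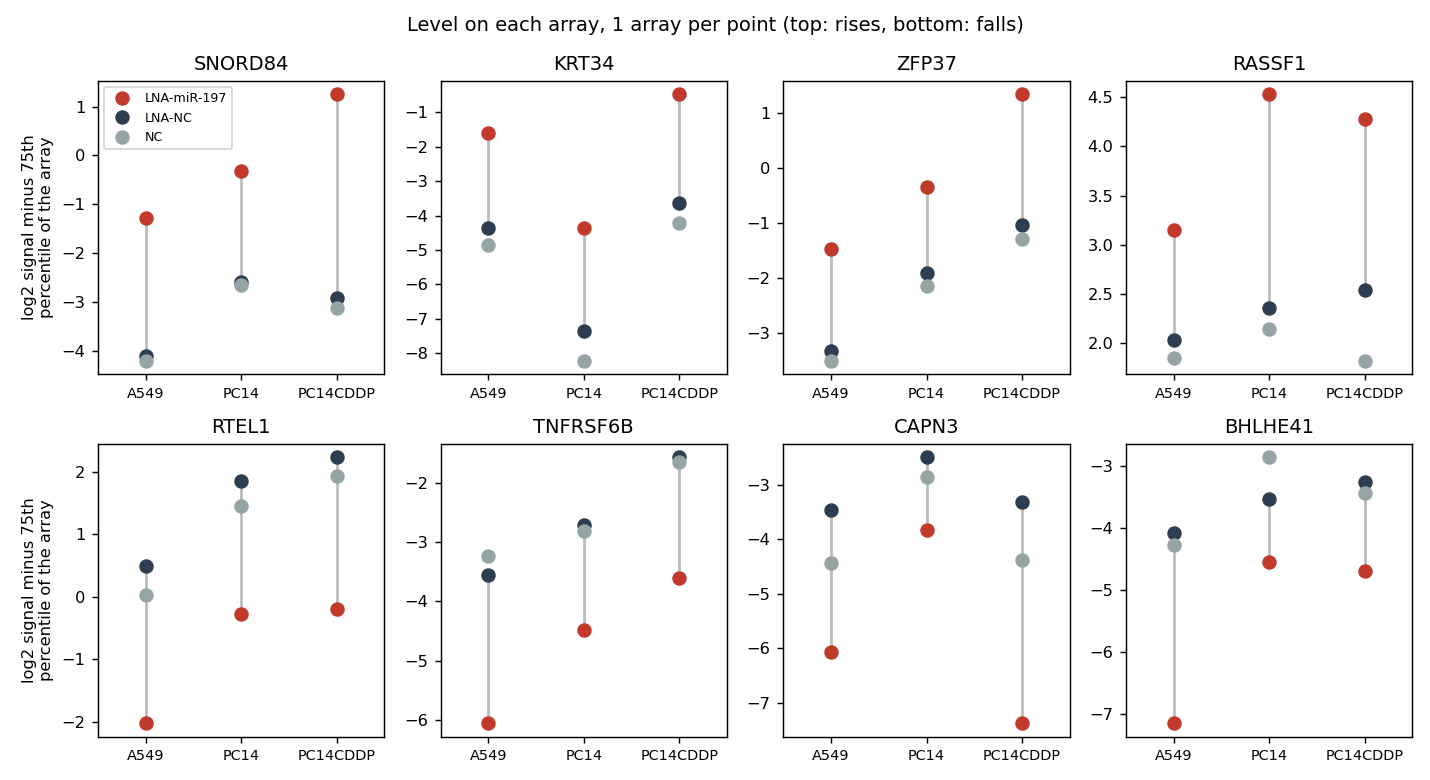
Levels of 4 genes that rose and 4 that fell against both controls, on the y axis as log2 signal minus the 75th percentile of the array, for each line on the x axis, with 1 array per point and a grey line joining LNA-miR-197 to LNA-NC. In every line the LNA-miR-197 point lies above both control points for SNORD84, KRT34, ZFP37 and RASSF1 and below both for RTEL1, TNFRSF6B, CAPN3 and BHLHE41.

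RTEL1, a helicase that unwinds telomeric loops and DNA secondary structures, had the smallest adjusted p of the falls named here. Its level was -2.02, -0.27 and -0.19 after LNA-miR-197 and 0.49, 1.85 and 2.23 after LNA-NC, without overlap, and the log2 ratio was -2.35 ± 0.21 (SD, n = 3, adjusted p = 0.00153), or 5.10-fold lower. TNFRSF6B, the decoy receptor that neutralizes FAS ligand, is the neighbor of RTEL1 on chromosome 20, and RefSeq lists a read-through transcript of both. It fell from -3.55, -2.72 and -1.57 to -6.06, -4.49 and -3.61 (log2 ratio -2.10 ± 0.37, SD, n = 3, adjusted p = 0.0100). Its second probe had a ratio of -0.999 that was not called (adjusted p = 0.0755), and signal from the read-through transcript cannot be told apart from that of either gene. CAPN3, a calcium-dependent protease known from skeletal muscle, was called lower (-2.68) but its signal after LNA-miR-197 was well above background in 1 line only, and its log2 ratio was -0.84 with normexp. PARP10, a mono-ADP-ribosyltransferase, fell by 2.06 on its brightest probe, but its second probe was at 0.50 and not called. LRMDA (-2.02), MROH8 (-1.85), BHLHE41, a repressor of the circadian clock (-1.84), and MYOM1, a protein of the sarcomere M-band (-1.77), completed the 8 falls named by size. On the LNA-miR-197 arrays LRMDA was well above background on 1 of 3 and TNFRSF6B, MROH8, BHLHE41 and MYOM1 on 2 of 3, so that their sizes and their order rest in part on signals not above background. With normexp all 5 were still called lower, TNFRSF6B at -0.98, LRMDA at -0.60, MROH8 at -0.76, BHLHE41 at -0.58 and MYOM1 at -0.52. Apart from RTEL1, these transcripts had levels of -1.16 or less on every LNA-NC array.

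Other genes were called against LNA-NC but changed by less than 1.2-fold against NC, or in the opposite direction. FAM83E was at -1.78, -3.02 and -1.41 after LNA-miR-197, at 1.30, -1.07 and 1.23 after LNA-NC, and at -3.42, -5.29 and -4.57 after NC. It was thus lower than LNA-NC (log2 ratio -2.55, adjusted p = 0.0335) and higher than NC (2.36, adjusted p = 0.0271), with LNA-NC above NC by 4.91. AGBL2 (-3.15), ALPK3 (-3.10), SLC6A12 (-2.95) and LGALS4 (-2.70) were likewise called lower than LNA-NC, and their ratios to NC lay between -0.00 and 0.52. Rises of this kind were smaller. ARHGAP40 was higher than LNA-NC by 0.70 on its brightest probe (-0.43, not called, on the other), TGIF2LY by 0.66, FKBP14 by 0.61 and MYL9 by 0.61, with ratios to NC from -0.42 to 0.15. TAAR8 was not well above background on any LNA-NC array and was at least 1.61-fold higher after LNA-miR-197, while its ratio to NC was -0.48. None of these 10 genes was called in the same direction against NC.

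C2H2 zinc finger genes named ZNF formed the most numerous group among the rises. These genes encode DNA-binding proteins, many of which carry a KRAB domain and repress transposable elements, and a large share of them lies in clusters on chromosome 19. Of 539 ZNF genes with a probe, 509 passed the filter on dim signals, of which 64 were called higher (12.6%, beside 3.75% of all genes) and 7 lower (1.38%, beside 3.9%). Against both controls 60 were called higher (beside 2.98%) and 5 lower (beside 2.48%). Their median log2 ratio was 0.20, with 0.11 in A549, 0.18 in PC14 and 0.34 in PC14CDDP, where the medians of all genes were 0.01, -0.04 and -0.01. The share called higher was 12.9% of 248 ZNF genes on chromosome 19 and 12.3% of 261 elsewhere, against 2.14% of the 1308 other genes on chromosome 19. The ZNF genes called higher had another probe in 21 cases, and all 23 such probes had a positive ratio, with 4 called.

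ZNF829 was at -5.21, -2.04 and -0.76 after LNA-miR-197, at -6.83, -3.31 and -2.50 after LNA-NC and at -7.07, -3.41 and -2.87 after NC, a rise in each line although the levels of the lines overlapped (mean log2 ratio 1.54, adjusted p = 0.0100). Its LNA-NC signal was well above background in 2 lines, and its call was lost with normexp (0.71, adjusted p = 0.0567). ZNF37A, on chromosome 10, was at 2.76, 2.78 and 3.34 against 2.01, 1.75 and 1.57, without overlap (1.18 ± 0.53, SD, n = 3, adjusted p = 0.0218), and its other probes had ratios of 0.62 and 0.61. ZNF699 rose by 1.45 and ZNF383 by 1.06, both most in PC14CDDP (2.46 and 1.77). ZNF444 had the largest ratio of the list to LNA-NC (1.62, adjusted p = 0.00785) but was not called against NC (0.33, adjusted p = 0.116), since LNA-NC itself lay below NC by 1.29. The falls included ZNF652 (-0.76) and ZNF462 (-0.68), each called against both controls. After pre-miR-197 the median ratio of the ZNF genes to NC was 0.11, on the same side of 0 as after the inhibitor. The probes of the ZNF genes had a median GC content of 40.0%, against 45.0% over all genes, and the part of base composition in the result was not tested.

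Small nucleolar RNAs were called in 1 direction against LNA-NC. These RNAs guide the 2′-O-methylation (SNORD, box C/D) or pseudouridylation (SNORA, box H/ACA) of ribosomal and spliceosomal RNA, and most are cut from introns of host genes. Of 300 snoRNAs with a probe, 276 passed the filter, of which limma called 30 higher (10.9%, beside 3.75%) and 0 lower (beside 3.9%). At an unadjusted p under 0.05, 130 of the 276 were higher and 2 lower, beside 3272 and 3494 of all 24856 genes. Against NC, 26 of the 276 were called higher (9.42%, beside 7%) and 1 lower (0.362%, beside 7.81%). The median ratio of LNA-NC to NC was -0.14 for this list. Against both controls 18 were called higher (beside 2.98%) and 0 lower (beside 2.48%). The median log2 ratio over the 276 was 0.44, with 0.16 in A549, 0.31 in PC14 and 0.81 in PC14CDDP, and 0.27 against NC, and 167 of them had a positive ratio in every line against 8 with a negative one. Both classes took part, with 20 of 173 SNORD and 10 of 103 SNORA genes called higher. The probes of the 2 snoRNAs with the largest called rise are shown because they set out which RNA was read, SNORD84 at chr6:31508892-31508951 on the minus strand and SNORD69 at chr3:52726769-52726828 on the plus strand (hg19, as in the files).
SNORD84: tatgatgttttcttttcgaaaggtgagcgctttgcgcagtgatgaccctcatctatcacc
SNORD69: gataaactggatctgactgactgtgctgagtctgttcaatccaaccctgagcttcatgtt

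SNORD69 was at -1.98, -0.09 and 0.18 after LNA-miR-197 and at -2.59, -1.28 and -2.32 after LNA-NC, so that A549 changed least (log2 ratio 0.60) and PC14CDDP most (2.50), with a mean of 1.43 ± 0.97 (SD, n = 3, adjusted p = 0.0437). SNORD53 rose by 1.31 and SNORD1B by 1.18, again with the largest ratio in PC14CDDP (2.30 and 1.82). Larger ratios in the imprinted SNORD114 and SNORD115 clusters, each made of many copies of related sequence, were not called and differed between the lines. SNORD115-3 was at -7.96, -2.74 and -2.14 after LNA-miR-197 and at -8.00, -5.48 and -7.91 after LNA-NC, a ratio near 0 in A549, and it was well above background on 3 of 12 arrays (adjusted p = 0.134). The host transcripts did not show the same ratios. For 26 of the 30 snoRNAs called higher the array measured 1 host gene, 23 hosts in all, and their median log2 ratio was 0.07 beside 0.83 for the snoRNAs, with 24 of 26 snoRNAs above their host. GNL3, the host of SNORD69, had a ratio of 0.32 (adjusted p = 0.0599), and WDR43, the host of SNORD53, of 0.02. Of the 23 hosts, 2 were called higher, among them TSR1 (0.51), and IARS1 was called lower (-0.40), while SNORA84 within IARS1 rose by 0.79. These 26 snoRNAs were chosen by their call and their hosts were not, which by itself places the snoRNAs higher. Over all 220 snoRNAs with 1 measured host, called or not, the medians were 0.49 for the snoRNAs and 0.06 for the 115 hosts. Of the 3 second probes of the snoRNAs called higher, 1 had a positive ratio, so the group rests on single probes of short RNAs.

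Several genes of cholesterol synthesis were called higher than LNA-NC. Of 30 genes of cholesterol and fatty acid synthesis, limma called 6 higher (20.0%, beside 3.75%) and 0 lower (beside 3.9%), with 10 higher and 3 lower at an unadjusted p under 0.05 and a median log2 ratio of 0.16. Against NC, 2 of the 30 were called higher (6.67%, beside 7%) and 1 lower (3.33%, beside 7.81%). SQLE, the squalene epoxidase, was at 3.87, 3.70 and 3.58 after LNA-miR-197, at 3.17, 3.08 and 2.47 after LNA-NC, and at 3.66, 3.18 and 2.75 after NC, so that LNA-NC was the lowest in each line. It rose by 0.81 ± 0.26 (SD, n = 3, adjusted p = 0.0219) against LNA-NC and by 0.52 against NC (adjusted p = 0.0407). IDI1, the isopentenyl diphosphate isomerase, rose by 0.67 and 0.48. The other 4 were not called against NC. Among them were CYP51A1, a demethylase of the pathway (0.41 against LNA-NC, 0.31 against NC), INSIG1, which retains the sterol-sensing complex in the endoplasmic reticulum (0.90 and 0.42), and STARD4, a cytosolic sterol carrier (1.50 and 0.81). In the branch of fatty acid synthesis no gene was called, with FASN at -0.45 (adjusted p = 0.0624), SCD at -0.23 and ACACA at -0.28. STARD4 and INSIG1 had ratios of -0.92 and -0.72 after pre-miR-197 against NC, which were not called.

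Genes of the integrated stress response and of the unfolded protein response varied with the line and with the control. Of 27 such genes, 2 were called higher than LNA-NC (7.41%, beside 3.75%) and 9 higher than NC (33.3%, beside 7%), with 0 lower in either comparison and 10 higher and 1 lower than LNA-NC at an unadjusted p under 0.05. DNAJC3, an inhibitor of the kinases that phosphorylate eIF2α, rose by 0.88 (0.54, 0.72 and 1.39 by line, adjusted p = 0.0240), and SESN2, a stress-induced regulator of mTORC1, by 0.84. DDIT3, which encodes the transcription factor CHOP, was at 0.29, 1.01 and 2.83 after LNA-miR-197, at 0.38, -1.17 and 0.44 after LNA-NC and at -1.58, -1.96 and 0.12 after NC. In A549 the inhibitor and its control were thus both above NC, whereas in PC14 and PC14CDDP the inhibitor was above both controls, and the mean ratio was 1.50 ± 1.37 (SD, n = 3) to LNA-NC (adjusted p = 0.0649) and 2.52 to NC (adjusted p = 0.0129). ATF3 had the same order, with log2 ratios to LNA-NC of -0.51, 1.52 and 4.10. The cystine transporter subunits SLC7A11 (0.36, 1.37 and 2.73) and SLC3A2 (0.14, 1.63 and 2.09) also had their lowest ratio in A549, and none of these 4 was called against LNA-NC. A difference between the lines was not tested, since each line has 1 array per transfection.

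Of 25 targets of p53, SESN2 and POLH, a translesion DNA polymerase, were called higher (8.00%, beside 3.75%) and 0 lower, against both controls, with 7 higher and 1 lower than LNA-NC at an unadjusted p under 0.05. POLH was at -0.03, 0.06 and -0.12 after LNA-miR-197 and at -0.78, -0.26 and -0.79 after LNA-NC, without overlap (log2 ratio 0.58 ± 0.23, SD, n = 3, adjusted p = 0.0386). The median of the list was 0.37, beside -0.02 over all genes. CDKN1A and GDF15, neither called, had ratios of 1.57 and 2.05 in PC14CDDP and of 0.25 and 0.03 in A549. Of 25 NRF2 targets, OSGIN1 (0.57, 1.10 and 1.94 by line) and KEAP1 (0.53), which encodes the adaptor that marks NRF2 for degradation, were called higher (8.00%, beside 3.75%) and 0 lower, with 8 and 4 at an unadjusted p under 0.05. Against NC, 7 were called higher (28.0%, beside 7%) and 3 lower (12%, beside 7.81%).

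**Figure D2:**
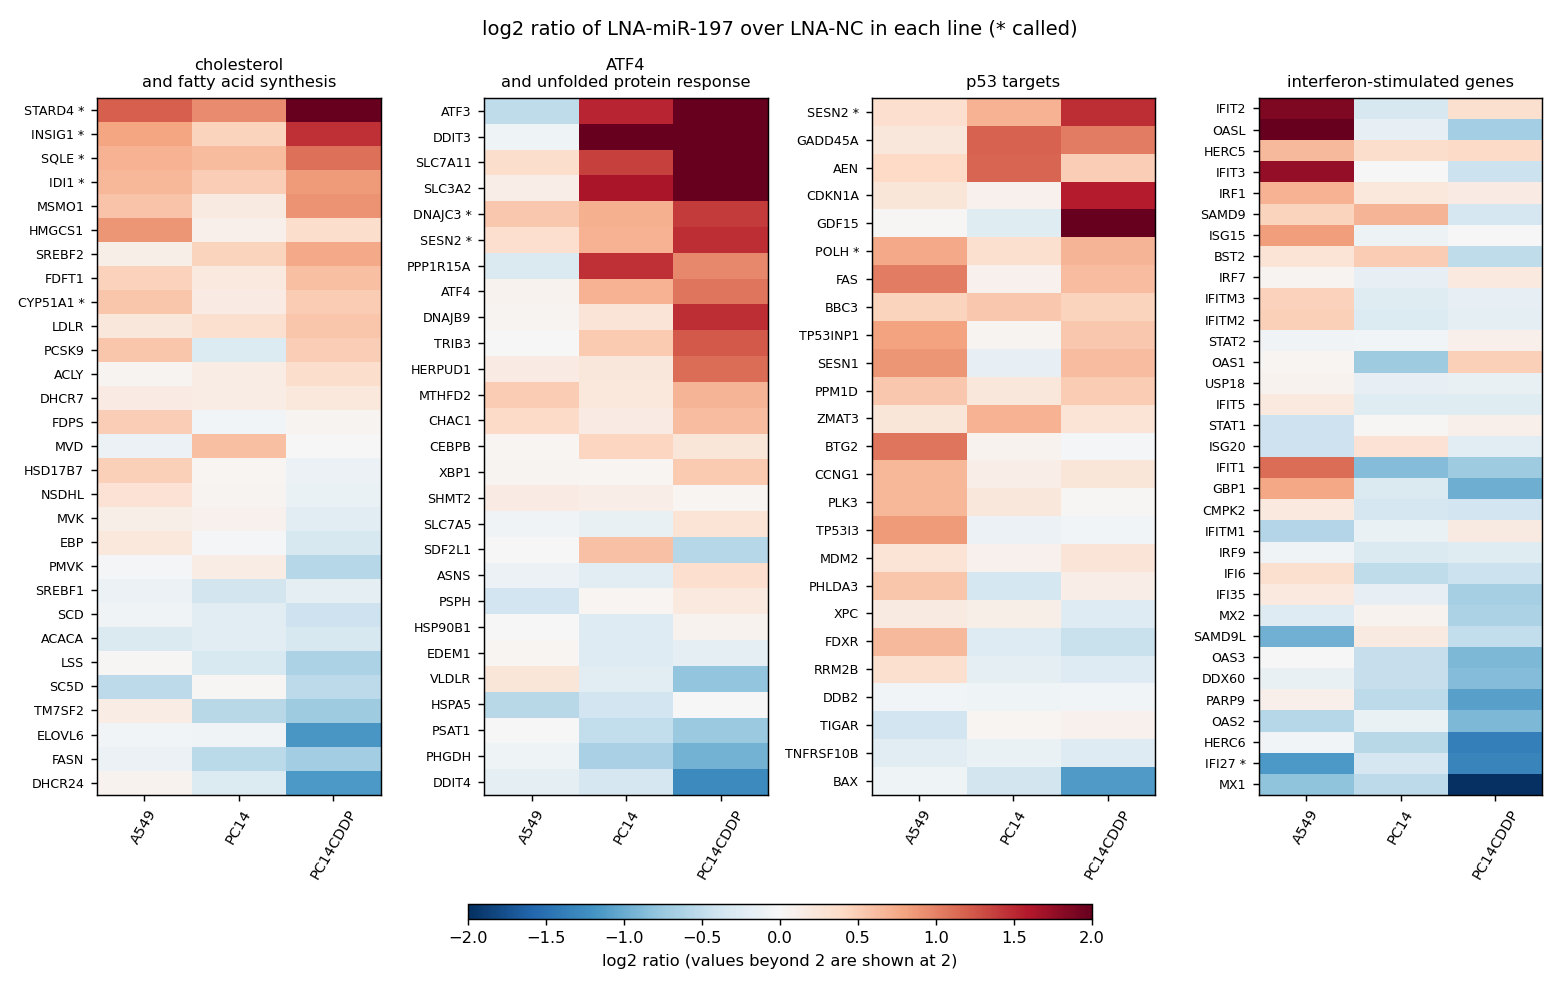
Log2 ratio of LNA-miR-197 over LNA-NC as color, from blue (lower) to red (higher), for each line (x axis) and tested genes of 4 lists (y axis, 1 cholesterol gene not shown), and genes called in the fit marked by a star. Cholesterol synthesis genes from STARD4 to CYP51A1 are red in all 3 columns, ATF3, DDIT3, SLC7A11 and SLC3A2 are darkest in PC14CDDP, and OASL, IFIT2 and IFIT3 are red in A549.

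CD274, which encodes the immune checkpoint ligand PD-L1, rose against both controls. Its level was -3.60, -3.51 and -0.42 after LNA-miR-197, -4.25, -4.82 and -1.95 after LNA-NC, and -4.01, -4.75 and -1.97 after NC. Within each line the inhibitor gave the highest of the 3 levels, but the lines overlapped because PC14CDDP had more CD274 than A549 and PC14 under every transfection shown. The log2 ratio to LNA-NC was 0.66, 1.32 and 1.53, with a mean of 1.17 ± 0.46 (SD, n = 3) or 2.25-fold (adjusted p = 0.0348), and 1.07 to NC (adjusted p = 0.0298). A second, dimmer probe had ratios of -0.20, 0.70 and 0.95 and was not called (0.48, adjusted p = 0.497). The call on the first probe was lost with normexp (0.61, adjusted p = 0.0863) and without a filter on dim probes (adjusted p = 0.0681). The proximal promoter of CD274 (GRCh38.p14, chr9:5450405-5450437, plus strand) holds the letters TTCNNNGAA, a form of the motif to which STAT proteins bind, with the first base at position -125 from the start site. It is shown because STAT3 signaling toward this promoter is a question of the study.
CD274 promoter: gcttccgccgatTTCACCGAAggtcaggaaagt
TTC and GAA separated by 2, 3 or 4 bases (TTCNNGAA, TTCNNNGAA or TTCNNNNGAA, either strand) were found in 16.1% of the 300-base promoters of 13199 tested genes, in 18.0% of 579 genes called higher and in 13.2% of 614 called lower.

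Of 17 immune checkpoint ligands tested out of 20, 2 were called higher (11.8%, beside 3.75%), CD274 and the butyrophilin BTN2A2 (0.47, adjusted p = 0.0386), and 1 lower (5.88%, beside 3.9%). The latter, TNFSF4, the OX40 ligand, was lower than LNA-NC (-1.48) but not called against NC. It was well above background on 1 of 3 LNA-miR-197 and 2 of 3 LNA-NC arrays, and its log2 ratio was -0.30 with normexp. CD276 (-0.12), CD47 (0.13) and PVR (0.14) were not called. Of 19 genes of HLA class I presentation, 1 was called higher and 1 lower (5.26% each, beside 3.75% and 3.9%). HLA-E, a ligand of the NKG2 receptors of natural killer cells, rose by 0.45 (adjusted p = 0.0347), and ERAP1, which trims peptides in the endoplasmic reticulum, fell by 0.47 (adjusted p = 0.0367). HLA-B and HLA-C had ratios of 0.01 and -0.04. Of 33 interferon-stimulated genes, limma called 0 higher (beside 3.75%, with 1 at an unadjusted p under 0.05) and 1 lower (3.03%, beside 3.9%), IFI27, which was lower than LNA-NC (-0.93) but not called against NC. OASL had log2 ratios of 2.35, -0.16 and -0.69 and IFIT3 of 1.75, -0.00 and -0.43, so that only A549 was above its control, and neither was called.

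Of 25 genes of the response to IL-6 and STAT3, limma called 0 higher and 0 lower against LNA-NC (1 and 4 at an unadjusted p under 0.05), beside 3.75% and 3.9% of all genes, with a median ratio of -0.06. Against NC it called 0 higher and 3 lower (12%, beside 7.81%). STAT3 itself had ratios of 0.24, 0.22 and -0.19 (0.09 ± 0.24, SD, n = 3, adjusted p = 0.782). IL6 had 2.50, 0.67 and 0.19 and BCL6 0.37, 0.84 and 1.95, neither called (adjusted p = 0.380 and 0.0798). Of genes downstream of STAT3 that the study followed as proteins, BCL2 had a ratio of 0.02 ± 0.21, MYC of 0.09 ± 0.09 and CCND1 of -0.13 ± 0.23 (SD, n = 3 each), and none was called against LNA-NC. The study reports by western blot that their proteins rose after LNA-miR-197 in PC14CDDP, whereas the arrays measure RNA. CCND1 was called lower against NC (-0.44, adjusted p = 0.0424), and the second probe of BCL2 had ratios of -0.98, -0.20 and -0.77 to LNA-NC (-0.65, adjusted p = 0.0751).

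CKS1B, a subunit of cyclin-dependent kinases and the target the study follows, was at 6.40, 6.18 and 7.05 after LNA-miR-197 and at 6.39, 6.10 and 6.87 after LNA-NC. The log2 ratios were 0.00, 0.09 and 0.17, each below 1.2-fold (0.09 ± 0.09, SD, n = 3, adjusted p = 0.594), and the second probe gave 0.16. ERLIN2 (-0.11) and CEP55 (0.17), a scaffold of abscission, were not called, and the dimmer probe of CEP55 gave 0.48 (adjusted p = 0.0593). CTNND1, which encodes p120 catenin, fell. It was at 0.37, -0.31 and -1.17 after LNA-miR-197 against 0.99, 0.49 and 0.09 after LNA-NC (log2 ratio -0.89 ± 0.33, SD, n = 3, adjusted p = 0.0220), while its second probe had 0.25, 0.23 and 0.21. After pre-miR-197 the ratio of the same probe to NC was -0.90 (adjusted p = 0.0655), and the difference between the inhibitor and the precursor was not called (adjusted p = 0.988). Of 14 tested genes that other work has reported as miR-197 targets, limma called PMAIP1, the proapoptotic BH3 protein NOXA, higher (0.75, adjusted p = 0.0312) and 0 lower (2 and 3 at an unadjusted p under 0.05), which is 7.14% called higher beside 3.75% of all genes. PMAIP1 was at 1.60, 1.04 and 1.24 after LNA-miR-197 and at 0.71, 0.63 and 0.29 after LNA-NC, without overlap, but its ratio to NC was 0.38 and not called. BMF, another BH3 protein, had ratios of 1.05, 0.62 and 1.50 that missed the threshold (adjusted p = 0.0698), and TUSC2, a tumor suppressor of the lung, had 0.13. The 14 genes had a median ratio of -0.09 and a lowest ratio of -0.69, with 4 positive and 5 negative in every line. In the comparison with NC, 1 of them was called higher (7.14%, beside 7%) and 3 lower (21.4%, beside 7.81%).

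In other programs of tumor cells the shares called against LNA-NC were near those of all genes (3.75% higher and 3.9% lower) or rested on 1 or 2 genes. Of 30 mitotic genes, CENPF of the kinetochore was higher (0.46, not called against NC). Of 32 replication genes, POLA1, the catalytic subunit of DNA polymerase alpha, was lower by both controls, at 1.60, 1.97 and 1.42 after LNA-miR-197 and 2.11, 2.42 and 2.29 after LNA-NC, without overlap (-0.61, adjusted p = 0.0334). At an unadjusted p under 0.05, 3 of the 32 were higher and 7 lower than LNA-NC. In the comparison with NC, 0 were called higher and 5 lower (15.6%, beside 7.81%). Of 30 hypoxia and glycolysis genes, PFKP, the platelet phosphofructokinase, fell by 0.44 with nearly equal ratios in the lines (-0.41, -0.43 and -0.47, adjusted p = 0.0241), and its second probe fell by 0.45. The median of these 30 was -0.19, with 2 positive and 14 negative in every line. At an unadjusted p under 0.05, 1 was higher and 8 lower than LNA-NC. In the comparison with NC, 0 were called higher and 5 lower (16.7%, beside 7.81%). Of 21 genes of microRNA processing and action, TARBP2, a partner of Dicer, rose by 0.50 (adjusted p = 0.0450), while DICER1 (-0.26) and AGO2 (0.29) were not called. Among immediate early genes DUSP2 (0.59) was higher than both controls and NR4A2 (0.88) than LNA-NC, out of 29. Of 85 keratin genes KRT34 was the 1 called. IL24 (1.38) was the 1 gene called of 23 chemokines and cytokines, COL1A1 fell by 1.05, and OR7E24 (-0.54) was the 1 called of 92 olfactory receptors. In 21 genes of G1 cyclins and their inhibitors, 27 of the epithelial-mesenchymal transition, 15 drug efflux transporters, 12 metallothioneins and zinc transporters and 86 ribosomal proteins, limma called 0 in either direction against LNA-NC. At an unadjusted p under 0.05, 9 of these 161 genes were higher and 13 lower, beside 3272 and 3494 of all 24856 genes.

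Replication-dependent histone genes differed between the controls. Of 66 tested, 1 was lower than LNA-NC, H3C2 (3.86, 4.98 and 4.93 after LNA-miR-197 against 4.38, 5.54 and 5.40, log2 ratio -0.52 ± 0.05, SD, n = 3, adjusted p = 0.0355), but 20 were lower than NC (30.3%, beside 7.81%). The median ratio of the list was -0.08 to LNA-NC and -0.30 to NC, and LNA-NC stood at -0.25 to NC.

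The inhibitor and the precursor were set against each other for the genes named here, in contrasts that share no array. The difference between their effects passed the threshold for RTEL1 (-2.35 after the inhibitor and 0.21 after the precursor, adjusted p = 0.0118) and WHRN (1.84 and -0.23, adjusted p = 0.0495). For CD274 the ratio was -0.25 after the precursor, and the difference was not called (adjusted p = 0.116), nor was it for SNORD84 (0.57 after the precursor, adjusted p = 0.0877). Some named genes moved alike after the inhibitor and the precursor, such as COL1A1 (-1.05 and -1.08), ERAP1 (-0.47 and -0.43) and DUSP2 (0.59 and 0.73). Others moved in opposite directions, such as POLA1 (-0.61 and 0.11) and PFKP (-0.44 and 0.32). For these genes neither the precursor ratio nor the difference was called. Untranslated regions were not analysed here, so matches to the miR-197 seed could be counted only within the 60-base probes, where GTGGTGA occurred for 0.567% of all genes tested, 6 of the genes called higher (0.643%) and 7 of those called lower (0.722%). The probes of genes called higher and of genes called lower both had a median GC content of 41.7%, against 45.0% over all genes, and 92.5% of the genes called higher and 81.5% of those called lower were well above background on all 6 arrays, against 76.6% of all genes.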

How the data were processed

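RNA from 3 lines was measured on 12 one-dye Agilent arrays. The authors extracted spot intensity with Agilent Feature Extraction 10.7.3.1, per the labels, and deposited the mean and background intensity, a background-subtracted processed intensity and flags. A deposited table repeats the processed intensity on 100% of spots. The main text gives no array normalization and names Student's t-test in general, and its supplementary methods were not used here. 0 columns belonged to other samples.

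Control and outlier spots were left out, spots of a probe averaged, and the deposited processed intensity turned to log2 after division by its 75th percentile on that array. Probes missing on any array (106) were dropped. A probe entered if well above background on at least 3 of 12 arrays (33712 probes), and the brightest stood for its gene (24856 genes). Names came from RefSeq (GRCh38.p14) by accession for 28170 probes (55.7%) and otherwise from the files, whose coordinates are on hg19. Promoters and miRNAs are from RefSeq. Depth does not apply to arrays, where the number of arrays limits the precision.

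Linear models of limma 3.58.1 (R 4.3.3) held transfection and cell line, which contains the slide, as terms over the 12 arrays, with eBayes, and p-values were adjusted over all genes by Benjamini-Hochberg and called under 0.05. The cell line, given in the labels, pairs treated and control arrays, whose deviations correlated at r = 0.929 in A549, 0.890 in PC14 and 0.864 in PC14CDDP. Nothing says that arrays came from repeated cultures of a line. In simulated arrays of LNA-miR-197 against LNA-NC with 24856 genes, 61 of 100 genes changed by a log2 of 1 and 93 of 100 changed by 2 were recovered, with 5 false calls. The simulated noise was independent between arrays, with the spread of the same fit, and each change was equal in all lines. The simulation therefore checks the code and cannot give the share of false calls in the real data.

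Named genes were the 8 largest rises and 8 largest falls called against both controls in the same direction in all lines, well above background on at least 9 arrays and with a RefSeq symbol, then the 5 rises and 5 falls called against LNA-NC but under 1.2-fold or opposite against NC, up to 4 called members per list, and genes the paper names. A few genes are not reported here. Other members of lists, and ZNF444, were chosen after their values were seen. The comparison and the gene lists were chosen with earlier results of these data known. Alternatives were other scaling, background correction, filters, probe summaries, models and tests, and leaving out each line.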

Additional observations from a re-analysis of the deposited data

How the results depend on the processing

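The calls depended on the model more than on the scaling. Quantile normalization and the mean of the probes of a gene left the counts within 1.5 times. The counts of genes called higher, called lower, called higher against both controls and called lower against both controls, which were 933, 970, 740 and 616, became 1513, 1643, 1242 and 1082 with normexp, 1570, 1492, 1267 and 1063 for genes well above background on all 12 arrays, 1615, 1618, 1309 and 1092 with a trended robust prior, and 235, 282, 200 and 162 without a filter on dim probes. With the slide as a random block they were 2, 4, 0 and 0. Without the replicate block of the cell line they were 0, 3, 0 and 0. All 4 counts were 0 when LNA-miR-197 was fitted with LNA-NC alone and, separately, with NC alone. They were also 0 by the methods' t-test after adjustment, which gave 358 higher and 400 lower than LNA-NC at an unadjusted p under 0.05. Leaving out 1 line gave 0 higher, 0 to 2 lower and 0 against both controls. The cause of these drops was not tested. The fits with 1 control alone, the t-test and the fits without 1 line hold fewer arrays. The fit with the slide as a random block and the fit without the replicate block hold all 12 arrays. Both lack the term for the cell line, and the t-test was unpaired. Genes at 1.2-fold in all lines were 979 higher and 1096 lower with normexp, 1325 lower for genes above background on all 12 arrays, and, without 1 line, 2147 to 3630 higher and 2797 to 4116 lower.

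Of the 69 named genes, 62 were called, and against NC 9 changed sign, TAAR8 (-0.48), ARHGAP40 (-0.42), TGIF2LY (-0.17), AGBL2 (0.26), SLC6A12 (0.52), LGALS4 (0.35), FAM83E (2.36), STAT3 (-0.077) and BCL2 (-0.16). With the mean of the probes ERLIN2 (0.11), STAT3 (-0.059) and BCL2 (-0.32) changed sign, as did BCL2 with normexp (-0.0046) and when a line was left out (-0.10 to 0.084). With normexp 11 of the named genes lost their call, TAAR8, ARHGAP40, TGIF2LY, MYL9, CD274, IL24, DUSP2, NR4A2, COL1A1, SPANXN5 and ZNF829, and 42 did so without a filter on dim probes. Signal over background limits the size of the change for genes dim on arrays of either group.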
